A study of Homo sapiens with 8 samples.

Results

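MHC class I and antigen loading genes were followed across 8 RNA-seq libraries of Hep3B, a human hepatocellular carcinoma cell line. The 9 members are HLA-B, HLA-C, HLA-E, HLA-F, B2M, TAP1, TAP2, TAPBP and NLRC5. They were chosen by gene symbol, and all 9 had rows among the 16040 genes of the first table and the 14955 genes of the second. The first table held unmodified Hep3B (genotype label WT) and Hep3B SOX4 knockout cells, made with CRISPR/Cas9, and the second held Hep3B cells given a scramble control siRNA or a STAT6 siRNA. Each of the 4 conditions had 2 libraries and no interferon or other cytokine is named in the labels. According to the methods, 2 SOX4 knockout lines exist and were kept in puromycin, but which line gave which library is not stated. Nothing states that the 2 libraries of a condition came from separate cultures, so p-values measure only the spread between these libraries, which may be technical. Total expected counts per library ran from 16266282 to 25353113.

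MHC class I molecules display peptides from inside the cell to CD8 T cells and natural killer cells. Peptides cut by the proteasome are carried into the endoplasmic reticulum by the TAP1-TAP2 transporter, where tapasin, encoded by TAPBP, bridges the transporter to the heavy chain and B2M. NLRC5 is a transactivator of class I genes, acting through the SXY module of their promoters, and interferon raises many genes of the pathway through interferon-stimulated response elements. Hepatocytes are known for weak class I expression at rest.

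In the hg38 coordinates of the deposited transcripts, 7 of the members lie in the MHC region of chromosome 6: HLA-F (chr6:29723340-29727297), HLA-E (chr6:30489406-30494206), HLA-C (chr6:31268749-31272137), HLA-B (chr6:31353866-31357246), TAP2 (chr6:32821833-32838824), TAP1 (chr6:32845209-32853972) and TAPBP (chr6:33299695-33314388). B2M lies at chr15:44711487-44718160 and NLRC5 at chr16:57017074-57083525. TAP2 and TAPBP were given as 3 transcripts each, HLA-C, HLA-F and TAP1 as 2, and the others as 1. Values below are summed over the transcripts of a gene.

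Promoter windows of 300 bases (250 before to 50 after the start site) show which of these elements each gene carries. RefSeq windows on GRCh38.p14 matched 7 of the 9 members, in 8 windows, those other than HLA-E and NLRC5. Start sites are those of RefSeq, and the deposited transcripts can begin elsewhere. The 3 deposited TAPBP transcripts begin at 33314388, beyond the upstream edge of the TAPBP window, so that window lies downstream of their start. The windows of HLA-F, B2M, TAP1 and TAPBP are printed because these genes, with NLRC5, were the members whose knockout libraries lay above both Hep3B libraries, and HLA-B is printed as a class I heavy chain that did not. Capitals mark 4 motifs, searched on both strands: the interferon element core (GAAA, 2 bases, GAAA), the X2 box core (TGACGC), the CCAAT box (CCAAT) and an NF-kB site (GGG, 2 bases, TT, 1 base, CC).
HLA-F, chr6:29723184-29723483, plus strand: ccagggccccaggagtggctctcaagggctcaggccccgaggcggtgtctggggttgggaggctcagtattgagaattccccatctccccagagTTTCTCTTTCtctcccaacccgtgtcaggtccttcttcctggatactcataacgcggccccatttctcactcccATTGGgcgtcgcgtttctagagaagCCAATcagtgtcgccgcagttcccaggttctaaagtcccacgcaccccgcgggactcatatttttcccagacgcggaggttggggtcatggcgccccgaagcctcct
HLA-B, chr6:31357130-31357429, minus strand: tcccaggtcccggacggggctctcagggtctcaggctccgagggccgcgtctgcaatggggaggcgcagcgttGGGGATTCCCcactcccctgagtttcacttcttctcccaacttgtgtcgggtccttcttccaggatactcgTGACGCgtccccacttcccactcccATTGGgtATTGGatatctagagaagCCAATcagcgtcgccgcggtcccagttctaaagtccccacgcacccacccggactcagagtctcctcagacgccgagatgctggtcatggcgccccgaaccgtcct
B2M, chr15:44711267-44711566, plus strand: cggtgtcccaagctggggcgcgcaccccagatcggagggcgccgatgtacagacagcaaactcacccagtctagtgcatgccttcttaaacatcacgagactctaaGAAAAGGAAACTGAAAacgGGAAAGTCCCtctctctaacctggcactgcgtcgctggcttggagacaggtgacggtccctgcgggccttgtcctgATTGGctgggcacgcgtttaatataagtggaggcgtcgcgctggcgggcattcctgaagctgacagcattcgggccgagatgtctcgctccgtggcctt
TAP1, chr6:32853655-32853954, minus strand: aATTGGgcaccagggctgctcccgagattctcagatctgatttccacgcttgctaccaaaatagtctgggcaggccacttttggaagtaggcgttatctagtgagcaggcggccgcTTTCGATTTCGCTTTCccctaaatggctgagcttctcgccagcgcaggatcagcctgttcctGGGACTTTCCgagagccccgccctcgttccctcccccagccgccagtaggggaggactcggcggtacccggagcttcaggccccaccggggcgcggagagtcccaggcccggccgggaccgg
TAPBP, chr6:33314029-33314328, minus strand: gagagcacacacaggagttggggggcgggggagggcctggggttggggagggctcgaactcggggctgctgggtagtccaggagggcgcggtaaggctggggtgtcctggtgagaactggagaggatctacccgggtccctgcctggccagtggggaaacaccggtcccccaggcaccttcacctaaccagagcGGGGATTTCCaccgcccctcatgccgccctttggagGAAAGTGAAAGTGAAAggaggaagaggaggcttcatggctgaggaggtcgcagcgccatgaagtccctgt

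The interferon element core was in windows of 5 of the 7 members (HLA-F, B2M, TAP1, TAP2 and TAPBP), against 3.57% of 35116 promoter windows of the same length. In B2M, TAP1 and TAPBP the core occurred as an overlapping pair sharing a GAAA word. The X2 box core was in HLA-B, HLA-C and TAP2 (9.14% of all windows), and the HLA-F window did not hold these letters. The CCAAT box was in HLA-B, HLA-C, HLA-F, B2M and TAP1 (34.6%), and the NF-kB site was in HLA-B, B2M, TAP1 and TAPBP (5.68%). Of motifs left in lower case, TTC, 4 bases, GAA, as bound by STAT6, was in HLA-C and HLA-F (6.44%), the gamma-activated form with 3 bases between was in the other TAP1 window (7.66%), and the SOX word ACAAAG was in 0 of the 7 members (16.1%). The SOX4 binding word given in the paper is looser than ACAAAG, as it allows A or T at several positions. That looser word was not searched, so the count of 0 holds for ACAAAG only. The other TAP1 window holds the letters ATCAAAG, which fit the looser word. These matches are descriptions of letters and not of bound sites.

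In the libraries labelled SOX4 knockout, HLA-F was the member that passed the test (log2 fold change 2.97). B2M, TAP1, TAPBP and NLRC5 also lay above both Hep3B libraries without passing after adjustment, whereas the classical heavy chains HLA-B and HLA-C and the non-classical HLA-E overlapped. With edgeR's quasi-likelihood test and Benjamini-Hochberg adjustment over 14415 genes, 1 of the 9 members was called at an adjusted p below 0.05, against 5.89% of all genes tested and 4.5% called higher. All 9 log2 fold changes were above 0, against 50.4% of all genes, with a median of 0.98 beside 0.01 over all genes. With offsets for GC content and length 7 of 9 were above 0 and the median was 0.57, and 8 of 9 were above 0 with RLE factors, with DESeq2 and with all 8 libraries in 1 fit, where HLA-E was below 0. Knockout and Hep3B libraries did not overlap for 5 of the 9, all higher, against 28.5% of all genes tested.

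The targeted transcripts were read first. SOX4 stood at 729 and 249 CPM (counts scaled to library size with trimmed mean of M values factors) in Hep3B and at 261 and 271 in the knockout, a log2 fold change of -0.83 (adjusted p = 0.372, edgeR). The SOX4 transcript level therefore does not check the knockout label. STAT6, the target of the siRNA, stood at 46.2 and 33.9 CPM in scramble and 11.5 and 6.49 CPM in STAT6 siRNA (-2.22, unadjusted p = 0.00834 and adjusted p = 1 with edgeR). STAT6 was also lower in the libraries labelled SOX4 knockout, at 2.42 and 1.98 CPM against 29.1 and 12.4 CPM (-3.18, adjusted p = 0.0275, edgeR).

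NLRC5, on chromosome 16, was the least expressed member. It had 2 and 4 counts in Hep3B and 52 and 26 counts in the knockout, which is 0.104 and 0.198 CPM against 1.72 and 1.29 CPM. Both knockout libraries were higher than both Hep3B libraries. The gene met the count filter only through its knockout counts, so a difference could only appear as higher. The pooled count ratio was 10.2, with an exact 95% interval from 4.48 to 28.6 that covers counting error only. The fitted log2 fold change was 3.34 ± 0.82 (SE, n = 2 libraries a group), with an adjusted p of 0.0536 by edgeR (0.0325 with DESeq2), and for so few counts it depends on the prior count.

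The classical heavy chains present peptide to CD8 T cells. HLA-B read 43.0 and 57.3 CPM in Hep3B and 44.8 and 72.2 CPM in the knockout. HLA-C read 92.5 and 130 CPM against 127 and 167 CPM. The libraries overlapped for both genes. Their log2 fold changes were 0.28 (95% interval -0.59 to 1.16) and 0.46 (-0.36 to 1.28), with adjusted p of 0.678 and 0.447 by edgeR. Both intervals leave room for a fall as well as a rise, up to their limits.

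HLA-E, the ligand of the NKG2A receptor, read 113 and 112 CPM in Hep3B and 88.4 and 131 CPM in the knockout. Its log2 fold change was 0.01 (-0.79 to 0.82; adjusted p = 0.985, edgeR). HLA-F, a heavy chain with restricted expression, was far lower: 0.466 and 0.990 CPM in Hep3B, from 9 and 20 counts, against 4.41 and 6.62 CPM, from 133 and 134 counts. No Hep3B library reached a knockout library. Its log2 fold change was 2.97 ± 0.66 (SE, n = 2) and a 95% interval of 1.44 to 4.52 and an adjusted p of 0.0447 by edgeR. The call is close to the threshold, and it was lost when either knockout library was left out (adjusted p of 0.174 and 0.285), under offsets for GC content and length (0.0696) and with all 8 libraries in 1 fit (0.0631). The log2 fold changes there were 3.23, 2.63, 2.62 and 2.91, close to 2.97.

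HLA genes share sequence, so their reads can be divided between genes. In the first table HLA-B and HLA-C had whole-number expected counts (tolerance 0.05) in 0 of 4 libraries and HLA-E in 3, against 66.4% of all genes whole in 4. In the second table HLA-B and HLA-C were again whole in 0 of 4 libraries and HLA-E in 4. B2M, TAP2 and NLRC5 were whole in 4 of 4 libraries in both tables. The 2 transcripts of HLA-C carried identical values in every library. HLA-F overlaps the antisense gene HLA-F-AS1 over 697 bases on the other strand, and whether counting used strand is not stated; the HLA-F expected count was whole in 1 library of the first table and 2 of the second, and the sum of the pair was whole in 4 and 3. HLA-F-AS1 read 1.14 and 1.53 CPM in Hep3B and 2.72 and 1.43 CPM in the knockout. The 2 genes together read 1.61 and 2.52 CPM against 7.12 and 8.06 CPM, so the combined level was also higher, by 3.68-fold of the means.

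Summing the 4 HLA members avoids dividing reads within the group. The sum was 249 and 301 CPM in Hep3B and 264 and 376 CPM in the knockout, a log2 difference of 0.20, less than the pooled within-group SD of 0.29. Over all 6 HLA class I rows of the table, which include those that are not members, it was 0.25. HLA-F supplied 0.187% and 0.329% of the members' sum in Hep3B and 1.67% and 1.76% in the knockout. HLA-F was a small part of the sum in every library.

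B2M, the light chain of every class I molecule, read 339 and 258 CPM in Hep3B and 469 and 846 CPM in the knockout. Both knockout libraries were higher, and they differed from each other by 0.85 on the log2 scale. The log2 fold change was 1.19 ± 0.45 (SE, n = 2), adjusted p = 0.149 by edgeR. The ratio of B2M to the HLA members per kilobase of transcript was 2.73 and 1.65 in Hep3B and 3.35 and 4.27 in the knockout.

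TAP1 and TAP2 form the peptide transporter as a dimer. TAP1 read 6.68 and 14.3 CPM in Hep3B and 29.0 and 36.1 CPM in the knockout. No libraries overlapped, and the log2 fold change was 1.70 ± 0.46 (SE, n = 2; adjusted p = 0.0696, edgeR). TAP1 passed in 3 of 14 other settings, among them DESeq2 (adjusted p = 0.0151) and the fit without Hep3B library 2 (0.0109). TAP1 overlaps PSMB8-AS1 over 1293 bases on the other strand, which read 0.259 to 0.692 CPM, so TAP1 held 96.3% or more of the pair in each library of the table.

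The longer of the 2 TAP1 transcripts, whose deposited 5′ end at 32853972 lies beyond the upstream edge of the printed window, held 94.1% and 91.9% of the TAP1 expected count in Hep3B and 95.9% and 80.8% in the knockout. In the second table it held 50.8% and 69.8% in scramble and 89.8% and 99.6% with STAT6 siRNA. These shares are estimates from reads that fit both transcripts, they rest on 51 to 86 expected counts a library in the second table, and no test was run on them. HLA-F also had 2 transcripts, and the shorter in genome span held 100% and 25.6% of its count in Hep3B and 66.1% and 89.0% in the knockout, so the Hep3B libraries spanned the knockout values.

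TAP2 read 15.1 and 54.0 CPM in Hep3B and 40.4 and 53.9 CPM in the knockout. The Hep3B libraries differed from each other by 1.83 on the log2 scale, more than the log2 fold change of 0.52 (adjusted p = 0.599, edgeR), which went to -0.18 without Hep3B library 1 and to 1.67 without Hep3B library 2 (adjusted p = 0.0393). Per kilobase of transcript the level of TAP1 stood at 0.749 and 0.449 of TAP2 in Hep3B and at 1.22 and 1.14 in the knockout. Tapasin, TAPBP, read 93.1 and 56.3 CPM against 119 and 166 CPM, with no overlap and a log2 fold change of 0.98 ± 0.39 (SE, n = 2; adjusted p = 0.168, edgeR).

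**Figure D1:**
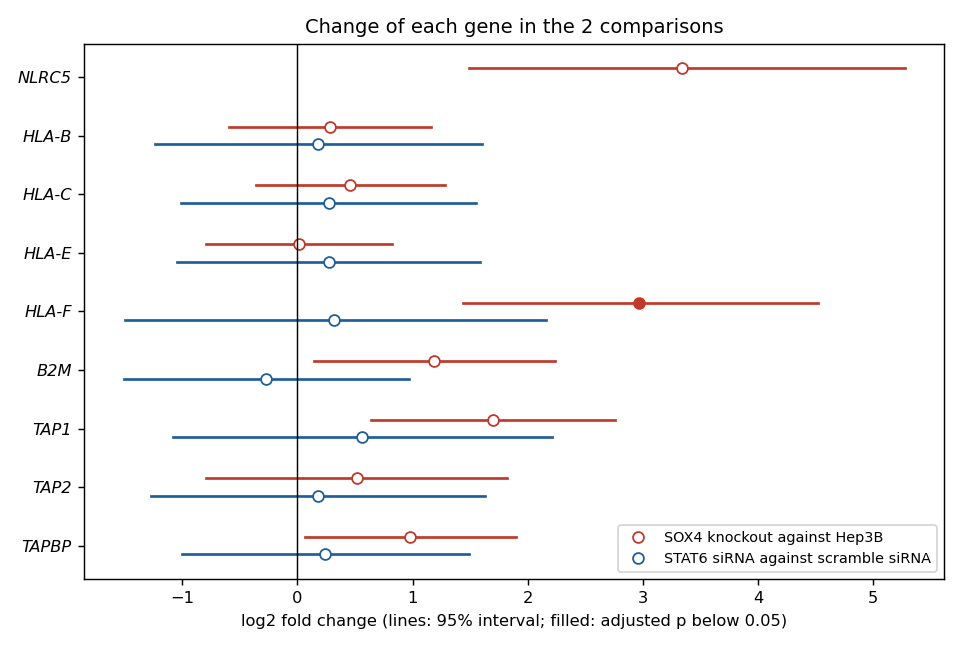
Log2 fold change (x axis) of each member (y axis) in the SOX4 knockout (red) and STAT6 siRNA (blue) comparisons, with 95% intervals from edgeR; filled points passed an adjusted p of 0.05. HLA-F in the knockout, at 2.97, is the one filled point; NLRC5 was not tested in the STAT6 siRNA comparison.

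Among genes that act with the members, those passing the test in the knockout were in the peptide production, class I-like and class II groups. The share called over all genes was 5.89%. In peptide production and trimming 1 of 15 passed, near that share. The median log2 fold change of this list was 0.10 beside 0.01 over all genes, with 8 of 15 above 0 against 50.4%. The gene that passed, PSMB9, an immunoproteasome subunit, read 0.155 and 0.198 CPM in Hep3B and 2.52 and 4.60 CPM in the knockout (log2 fold change 4.34, adjusted p = 0.0271, edgeR). It had 3 and 4 counts in Hep3B, and the pooled count ratio was 18.9 with a counting interval from 8.99 to 47.8. Its partners PSMB8 (2.19, adjusted p = 0.0931, edgeR) and PSMB10 (1.49, adjusted p = 0.141) did not pass. In peptide loading and folding 0 of 10 passed, with a median log2 fold change of -0.54 beside 0.01 over all genes; the chaperones CALR, CANX and PDIA3 read -0.54, -0.66 and -0.68.

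Of 26 class I regulators tested 0 passed. Their median log2 fold change was 0.19 beside 0.01 over all genes, and 15 of 26 were above 0 against 50.4%. An unadjusted p below 0.05 by edgeR was reached by 5. Among those 5 were EZH2 (-1.62, adjusted p = 0.0528, edgeR), a histone methyltransferase, and SUSD6 (1.36, adjusted p = 0.0661). RFX5 (1.28, adjusted p = 0.079), a subunit of the complex at the X box, was another. Of 13 class I-like genes and natural killer ligands, 2 were called higher and 1 lower. MR1, which presents vitamin metabolites, rose from 6.06 and 5.69 CPM to 38.0 and 27.5 CPM (2.54, adjusted p = 0.0218, edgeR), and CD47, a signal against phagocytosis, rose from 28.7 and 18.7 to 81.2 and 147 CPM (2.32, adjusted p = 0.0319). ULBP1, a ligand of the activating receptor NKG2D, fell from 27.7 and 39.9 to 8.68 and 6.67 CPM (-2.07, adjusted p = 0.0331).

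The class II list held 13 genes, of which 6 had rows and were tested in the knockout comparison. Of these 3 passed, all higher. HLA-DMA (3.26, adjusted p = 0.0254, edgeR) and HLA-DMB (5.61, adjusted p = 0.0141) edit class II peptides. The other was HLA-DQB1 (4.32, adjusted p = 0.0381), from 1 and 2 counts in Hep3B and 36 and 39 in the knockout. HLA-DQB1 met the count filter only through its knockout counts, as did PSMB9 above and GBP1 below, so these calls could only be higher. The remaining class I rows, 3 tested, gave 0 calls. Among interferon-responsive genes 2 of 9 passed, GBP1 (adjusted p = 0.0321, edgeR; 2 and 0 counts in Hep3B and 98 and 43 in the knockout, a pooled ratio of 55.3 with a counting interval from 15.02 to 461) and GBP2 (2.50, adjusted p = 0.0474), both higher, while ISG15 (0.77, adjusted p = 0.203) and IRF1 (-0.47, adjusted p = 0.496) did not.

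**Figure D2:**
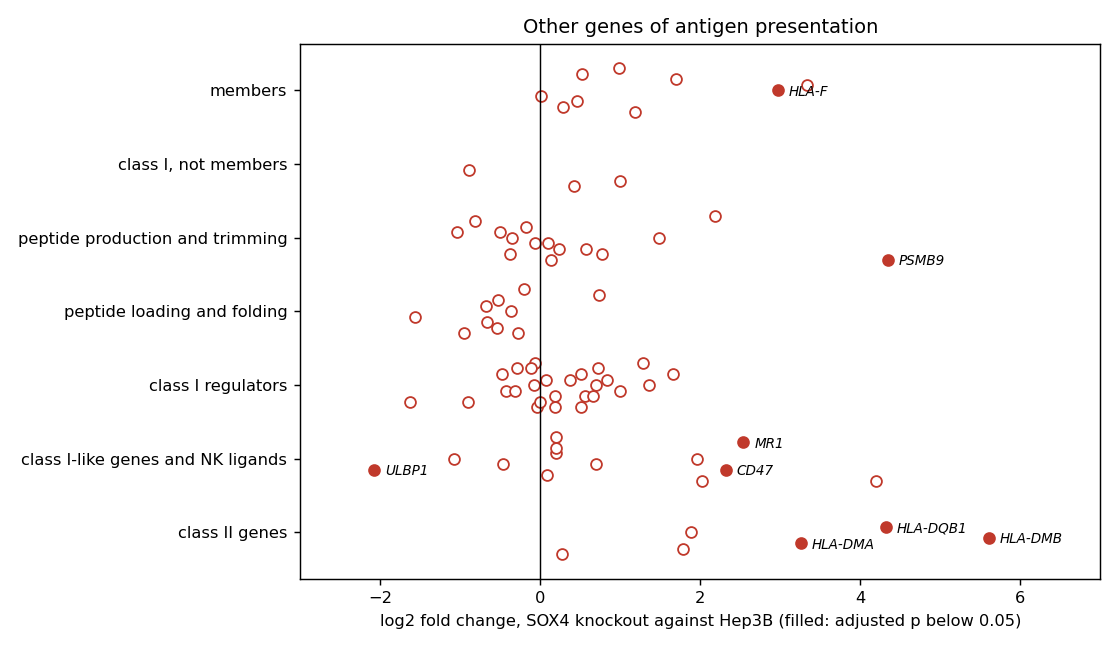
Log2 fold change in the SOX4 knockout against Hep3B (x axis) of the members and 6 groups of related genes (y axis); points are genes, filled and named where the adjusted p was below 0.05. The filled points at the right are HLA-F, PSMB9, MR1, CD47 and 3 class II genes, and ULBP1 lies at -2.07.

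Summed levels of cell type markers also differed between these groups, and their part in the values above was not tested. The 8 hepatocyte markers summed to 10766 to 14602 CPM in Hep3B and 27747 to 45310 CPM in the knockout, and 3 of the 8 were called higher. The leukocyte list, 4 of 10 in a table, summed to 7.67 to 43.5 CPM against 103 to 319 CPM, most of it LYZ, with 0 of 3 tested called, and its defining markers CD3E, CD2, MS4A1, CSF1R and TYROBP were in neither table. The fibroblast list, 4 of 5 in a table, summed to 4.04 to 6.98 CPM against 69.7 to 88.5 CPM, with LUM and PDGFRB called higher and DCN in neither table. Of 4 endothelial markers only PECAM1 was listed, at up to 0.692 CPM in the knockout, and interferon-responsive genes summed to 130 to 170 CPM against 224 to 244 CPM.

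In the STAT6 siRNA comparison no member was called among 8 tested, with NLRC5 below the count filter, and 0 of 13554 genes were called (0%). At an unadjusted p below 0.05 there were 14 genes by edgeR, none of them a member, and DESeq2 called 0. HLA-B read 44.1 and 26.4 CPM in scramble and 53.7 and 29.7 CPM with STAT6 siRNA; HLA-C read 179 and 104 CPM against 238 and 119 CPM. The libraries overlapped. HLA-E read 124 and 73.3 CPM against 174 and 76.0 CPM, and HLA-F 1.42 and 0.864 CPM against 2.39 and 0.671 CPM, again overlapping.

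The log2 fold changes of HLA-B, HLA-C, HLA-E and HLA-F were 0.18, 0.27, 0.27 and 0.32, each with a 95% interval from below -1 to above 1.5. B2M read 260 and 293 CPM in scramble and 163 and 305 CPM with STAT6 siRNA (-0.27, interval -1.51 to 0.97). TAP1 read 4.37 and 2.45 CPM against 6.66 and 3.85 CPM (0.56, interval -1.08 to 2.21), and TAP2 24.3 and 19.4 CPM against 28.0 and 23.2 CPM (0.18, -1.27 to 1.63). The interval of TAP1 does not exclude a change of 2-fold in either direction. TAPBP read 101 and 76.3 CPM against 132 and 86.0 CPM (0.24 ± 0.58, SE, n = 2).

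NLRC5 had 3 and 3 counts in scramble and 4 and 6 with STAT6 siRNA, a pooled ratio of 1.82 with a counting interval from 0.598 to 6.08. It was the member whose siRNA libraries did not overlap, all higher, against 3.27% of all tested genes. NLRC5 was not tested, so that share is not one for genes with so few counts, and the separation rests on a few reads. The median log2 fold change of the 8 tested members was 0.26, beside -0.03 over all genes, with 7 of 8 above 0 against 46.3% of all genes. With offsets for GC content and length it was -0.018, with 4 of 8 above 0, beside -0.016 over all genes. The HLA sum moved from 349 and 205 CPM to 467 and 226 CPM, a log2 difference of 0.28, less than the pooled within-group SD of 0.65.

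Within each siRNA condition the 2 libraries stood apart, which bears on whether the groups overlap. The labels do not pair libraries by number. The log2 differences of STAT6 siRNA from scramble between same-numbered libraries were these. HLA-B gave 0.28 and 0.17, HLA-C 0.41 and 0.20, HLA-E 0.48 and 0.05 and TAP1 0.60 and 0.63. TAP2 gave 0.21 and 0.26, TAPBP 0.39 and 0.17 and NLRC5 0.63 and 0.60. For HLA-F (0.72 and -0.32) and B2M (-0.67 and 0.06) the signs differed. Library 2 read below library 1 for every HLA member, by 0.65 to 0.78 on the log2 scale in scramble and 0.85 to 1.69 with STAT6 siRNA, and below it for TAP1, TAP2, TAPBP and NLRC5, whereas B2M went the other way, by 0.17 and 0.90. Over all genes, the log2 ratio of library 2 to library 1 correlated with GC content (Spearman -0.754 in scramble and -0.818 with STAT6 siRNA, across genes, which are not independent; -0.088 in Hep3B and 0.285 in the knockout). GC content of the transcripts is 39.1% for B2M and 50.4% to 63.0% for the other members.

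The difference between the 2 comparisons was tested in 1 fit over 8 libraries, and 0 members passed, against 0.0769% of all genes. HLA-F differed by 2.52 ± 1.10 (SE, n = 2 libraries a condition), with an unadjusted p of 0.0366 and an adjusted p of 0.687 by edgeR. B2M differed by 1.38 (95% interval -0.20 to 2.95) and NLRC5 by 2.41 (-0.35 to 5.22). It is therefore not shown that the members responded differently in the knockout and in the STAT6 siRNA cells.

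The controls of the tables differed for 1 member. TAP1 read 10.5 CPM on average in Hep3B and 3.41 CPM in scramble siRNA, a ratio of 3.08 without overlap, and the other 8 members overlapped. Per kilobase of transcript, leaving out TAPBP, whose length was matched only by symbol, the order in Hep3B was B2M at 317 CPM per kilobase, HLA-C at 72.5, HLA-E at 43.4, HLA-B at 32.4, TAP2 at 6.89, TAP1 at 3.55, HLA-F at 0.527 and NLRC5 at 0.0224. Neighbours in this order did not overlap apart from TAP2 and TAP1. In the knockout TAP1 stood above TAP2, at 11.0 against 9.40, and the libraries of the pair overlapped. In scramble and STAT6 siRNA the order of the means was that of Hep3B, with HLA-E and HLA-B overlapping and TAP1 and HLA-F overlapping in both, and with TAP2 above TAP1 without overlap.

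The genes whose levels over the 8 libraries were most like the mean profile of 8 members (NLRC5 left out for its low counts) were SFN (Pearson r = 0.992), SHISA4 (0.975), PTRF (0.968), PCDHGC3 (0.966) and ABCA3 (0.963), among 10966 genes averaging 100 counts or more per library. The 8 points share conditions, tables and libraries, so these values describe likeness to that mean only. The members did not share 1 profile, as correlations between them ran from -0.24 (B2M and HLA-C) to 0.81 (TAP2 and TAP1). Members were centred but not scaled before averaging, so those with larger changes weigh more in the mean. SFN, an epithelial 14-3-3 protein, read 6.57 and 10.2 CPM in Hep3B and 21.6 and 66.1 CPM in the knockout, and ABCA3, a lipid transporter, read 13.0 and 19.5 CPM against 75.2 and 110 CPM.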

How the data were processed

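RNA of 8 Hep3B libraries was prepared with a stranded mRNA kit. The authors deposited expected counts per RefSeq transcript; per the labels the build was hg38, and STAR and Partek are named without role or version in the submitters' processing notes. The aligner settings and use of strand are not given in the sources used here. Low-count transcripts (sum below 10) are absent from the tables. Counts were summed by gene symbol, rounded, filtered with filterByExpr and tested per table with edgeR 4.0.16 (R 4.3.3; TMM, quasi-likelihood), called at an adjusted p below 0.05; the difference was tested over 8 libraries. DESeq2 1.42.0 was an alternative, as were other scalings, filters, the library number as a block, offsets for GC content and length, and leaving out each library. Scripts were tested on simulated data. Library totals ran from 16266282 to 25353113 expected counts. Intervals on count ratios are exact and cover counting error only. Genes named are all members, related genes past the threshold with up to 3 others per list, and the 5 most alike. The others were not picked by a fixed rule and are not those with the highest mean counts, so they do not represent their lists. The members and lists were chosen with earlier results of these data known. GC content and length came from 98.4% of genes. Promoters are from RefSeq. Some results are not reported here.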

Additional observations from a re-analysis of the deposited data

How the results depend on the processing

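Library numbers shared between groups did not pair the libraries by the labels; deviations of same-numbered libraries correlated at -0.085 in the SOX4 knockout comparison and 0.873 in the STAT6 siRNA comparison, with only 2 pairs each. With the replicate block 982 genes and 2 members (HLA-F and TAP1, the latter at an adjusted p of 0.0422, and 0.116 with block and offsets) were called in the knockout, 62 genes and 0 members in the STAT6 siRNA comparison (TAP1 at an unadjusted p of 0.0451, adjusted 0.441, by edgeR) and 97 genes for the difference. The knockout count was 849 and became 2122 with DESeq2, 518 with at least 10 counts in every library, 482 with GC and length offsets, 62 with block and offsets, 438 in the fit of 8 libraries, and 21 to 2298 with a library left out (21 without knockout library 2, 73 without knockout library 1, 1322 without Hep3B library 2 and 2298 without Hep3B library 1). Members called were 3 with DESeq2, 0 with at least 10 counts in every library, 0 with offsets, 0 with block and offsets, 0 in the fit of 8 libraries, and 0 to 3 with a library left out. With block and offsets 366 genes were called in the STAT6 siRNA comparison, and members called there were 0 throughout. For the difference 11 genes became 5 with upper-quartile factors, 165 with DESeq2, 1 with at least 10 counts, 57 with offsets, 38 with block and offsets, and 0 to 127 with a library left out. The knockout HLA sum ran from -0.05 to 0.46 and the STAT6 siRNA sum from -0.24 to 0.81 with a library left out. In the knockout, HLA-B reversed to -0.053 with offsets and -0.053 with block and offsets, and HLA-E to -0.023 with RLE factors, -0.021 with DESeq2, -0.0096 with the block, -0.11 with offsets, -0.12 with both and -0.043 in the fit of 8 libraries. With STAT6 siRNA, HLA-B reversed to -0.044 and -0.052, HLA-F to -0.058 and -0.032, and TAPBP to -0.042 and -0.060 with offsets alone and with the block. With a library left out the knockout ran from -0.11 to 0.58 for HLA-B, -0.30 to 0.26 for HLA-E, -0.18 to 1.67 for TAP2, 0.19 to 0.70 for HLA-C, 0.70 to 1.55 for B2M, 0.64 to 1.36 for TAPBP, 1.21 to 2.32 for TAP1, 2.49 to 3.58 for HLA-F and 2.92 to 3.83 for NLRC5; the STAT6 siRNA comparison ran from -0.25 to 0.66 for HLA-B, -0.25 to 0.78 for HLA-C, -0.38 to 0.77 for HLA-E, -0.75 to 0.97 for HLA-F, -0.86 to 0.14 for B2M and -0.041 to 0.52 for TAPBP. With a library left out, the lone library of its group is assumed to vary like the other group. The cause was not tested. HLA-F, with 9 counts in a Hep3B library, was not tested with at least 10 counts in every library, and was called in 8 of 13 settings (2.70, adjusted p = 0.103, with block and offsets), TAP1 in 3 of 14, NLRC5 in 1 of 13 and TAP2 in 1 of 14. With 2 libraries a condition, depth limits NLRC5 and HLA-F most.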
